A study of Mus musculus with 22 samples.

Results

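The 92 genes described here encode potassium channel subunits. They are the genes whose symbol starts with Kcn, followed by lower-case letters and a number, out of 19721 genes listed in at least 1 of 22 RNA libraries. The libraries were made from mouse J1 ES cells, an embryonic stem cell line, and from embryoid bodies, the aggregates in which ES cells differentiate into many cell types. The study asked how tetrabromobisphenol A (TBBPA), a brominated flame retardant, changed gene expression while embryoid bodies developed. On each of D4, D9, D12, D18 and D28 there was 1 library with 10 nM TBBPA, 1 with 100 nM TBBPA and 2 with 0.1% DMSO, the solvent control. Another 2 libraries came from untreated ES cells, although their source label, like that of every library, reads embryoid body. D and its number were taken to mean the day of sampling. All libraries share the J1 line and carry no named genetic change, and the labels do not say how many cultures were used, so a p-value measures only the spread between these libraries, which may be technical.

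Potassium channels let potassium ions leave or enter a cell along their gradient and so set the resting membrane potential, end action potentials and shape firing. Pore-forming subunits assemble into voltage-gated, inwardly rectifying, two-pore domain and calcium- or sodium-activated channels, and auxiliary subunits alter their gating and their transport to the membrane. Neurons, glia, muscle and epithelia each use a characteristic set of them.

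By the letters of the symbol, 29 members are voltage-gated pore-forming subunits, 10 are electrically silent subunits that modify them, and 12 are voltage-gated auxiliary subunits, among which Kcne1l was counted. A further 15 are inward rectifiers, 14 are two-pore domain channels and 4 are beta subunits of the BK channel. The remaining 8, with the letters ma, n, t or u (Kcnu1 among them), were grouped as calcium- or sodium-activated channels by symbol alone. Of the 92, 49 were listed in all 22 libraries and 43 in fewer, and a gene missing from a library was taken as 0. A member was called present at a stage when it reached 1 FPKM (fragments mapped to a gene, scaled for transcript length and for all mapped reads) in both libraries. By that rule 40 members were present at some control stage and 52 at none, and 45 stayed under 1 FPKM in all 22 libraries.

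Total counts were 18158583 to 18998141 per library. The 2 ES libraries differed most from each other, with a mean chi-square of 21.2 per gene, against 1.61 to 3.25 for the DMSO pairs and 3.14 to 7.66 for 10 nM against 100 nM on the same day. All 5 ES markers (Pou5f1, Nanog, Zfp42, Esrrb and Tfcp2l1) were detected in the ES libraries, where their levels summed to 5000 to 5300 CPM (counts scaled to a common library size). The sum was 1330 to 1380 CPM at D4 and 307 to 312 CPM at D28 with DMSO. In such bulk samples, fewer cells of a type and less RNA per cell cannot be told apart.

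More members were present at D12, D18 and D28 than at the earlier control stages. The number present was 16 in ES cells, 17 at D4, 16 at D9, 22 at D12, 32 at D18 and 29 at D28. All genes present by the same rule numbered 11104, 11507, 12131, 12517, 12938 and 13212 over these stages. Of the 40 present at some stage, 7 had their highest mean FPKM in ES cells, 7 at D4, none at D9, 1 at D12, 10 at D18 and 15 at D28. D18 and D28 thus held the peak of 62.5% of these members, beside 46.5% of all 14265 genes present at a control stage. Only 8 members were present at all 6 control stages, namely Kcnh6, Kcnh2, Kcnd1, Kcnk1, Kcnk5, Kcnj4, Kcnip3 and Kcns3.

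The levels per length were uneven. Kcnk1, which encodes the weakly conducting two-pore channel TWIK1, had the highest level, with 50 and 52.8 FPKM at D4 and a lowest stage mean of 6.04 FPKM, in ES cells. Kcnh6, an ether-a-go-go related voltage-gated channel, peaked at 19.1 and 21 FPKM at D4 and never fell below a stage mean of 8.93 FPKM. Kcnk5, the alkaline-activated two-pore channel TASK2, peaked at 14.7 and 15.6 FPKM in ES cells. Every other member had a highest stage mean of at most 7.13 FPKM, reached by Kcne4 at D28. Just inside the presence threshold stood Kcnk12, with a peak mean of 1.14 FPKM, and just outside it Kcnma1 with 1.02, where 1 of the 2 libraries was under 1 FPKM, and Kcnk16 with 0.99 FPKM.

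**Figure D1:**
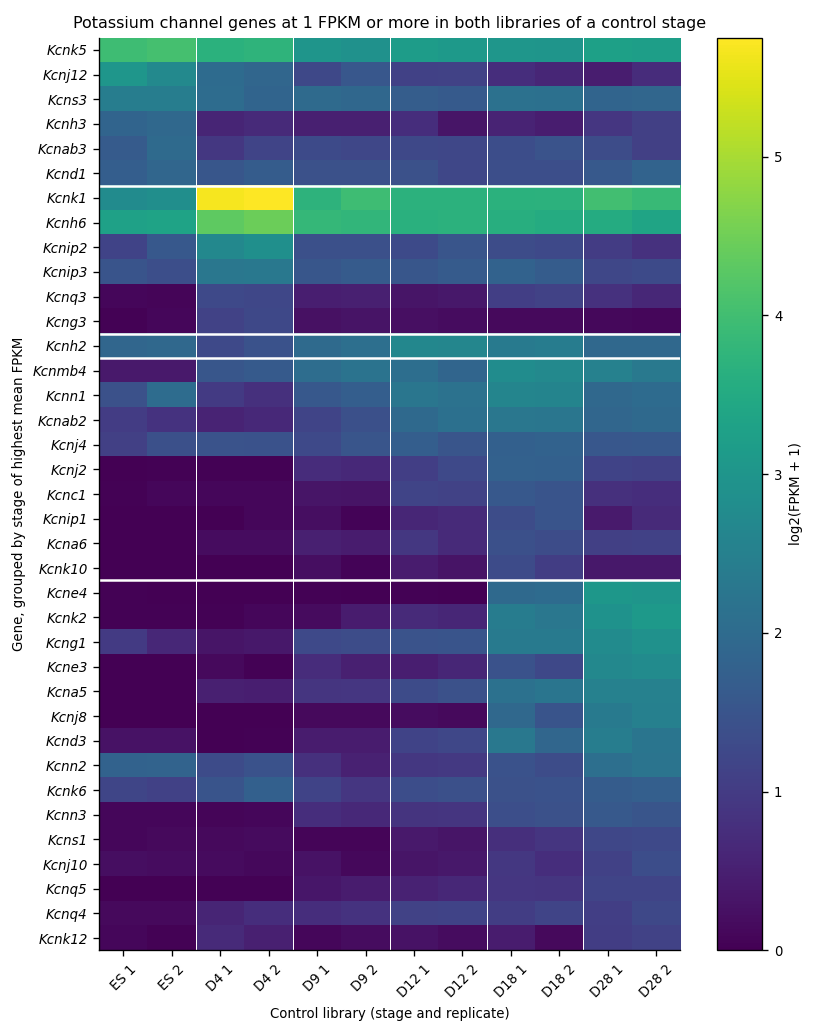
Levels of 37 of the 40 potassium channel genes present at a control stage, as log2(FPKM + 1) by colour, with the 12 control libraries along the x axis and genes along the y axis, grouped by the stage of highest mean FPKM (white lines). Kcnk1, Kcnh6 and Kcnk5 are bright throughout, and the largest block, 15 genes, peaks at D28.

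RefSeq lists promoter windows for 67 of the 92 members, 92 windows in all, each from 250 bases before to 50 bases after a start site (build GRCm38.p6). The median number of CpG dinucleotides in a 300-base window was 18 in the 29 members present at a control stage and 9.0 in the 38 that were not, beside 7.0 over all 27025 genes with a window. The median was 19.2 in the 8 members with a window that peaked in ES cells or at D4, and 13.5 in the 20 that peaked at D18 or D28. The ranges overlapped, from 4.0 to 49.0 CpGs in the earlier set and from 4.0 to 48.0 in the later one.

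The 250 bases before the start are printed here for 6 members that stand for the courses described next. These are an early fall (Kcnj12), a D4 peak (Kcnk1), a D18 peak (Kcnc1) and a late rise (Kcne4). The other 2 are those whose response to TBBPA changed direction between days (Kcnh2 and Kcnk5). Capitals mark CpG dinucleotides. The windows are chr11:61065554-61065803 (plus strand), chr8:125994852-125995101 (plus), chr7:46396218-46396467 (plus), chr1:78816661-78816910 (plus), chr5:24329592-24329841 (minus) and chr14:20181783-20182032 (minus).
Kcnj12: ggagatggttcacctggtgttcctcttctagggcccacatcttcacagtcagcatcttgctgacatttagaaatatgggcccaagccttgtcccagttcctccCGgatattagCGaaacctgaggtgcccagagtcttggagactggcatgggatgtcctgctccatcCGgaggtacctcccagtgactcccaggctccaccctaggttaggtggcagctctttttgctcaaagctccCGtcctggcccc
Kcnk1: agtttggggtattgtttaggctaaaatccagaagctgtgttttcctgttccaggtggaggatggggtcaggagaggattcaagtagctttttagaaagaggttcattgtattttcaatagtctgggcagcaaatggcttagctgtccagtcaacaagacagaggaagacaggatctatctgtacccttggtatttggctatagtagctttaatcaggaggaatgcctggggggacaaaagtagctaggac
Kcnc1: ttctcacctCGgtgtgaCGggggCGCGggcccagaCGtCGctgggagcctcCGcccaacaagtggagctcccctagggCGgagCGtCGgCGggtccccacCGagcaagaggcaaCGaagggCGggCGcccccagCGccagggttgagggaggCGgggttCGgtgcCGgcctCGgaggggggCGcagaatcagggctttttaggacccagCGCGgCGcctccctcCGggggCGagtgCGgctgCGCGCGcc
Kcne4: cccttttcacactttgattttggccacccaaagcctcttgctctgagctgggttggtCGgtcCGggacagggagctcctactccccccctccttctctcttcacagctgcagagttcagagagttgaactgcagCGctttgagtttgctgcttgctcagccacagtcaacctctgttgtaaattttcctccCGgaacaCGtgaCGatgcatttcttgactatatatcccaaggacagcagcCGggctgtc
Kcnh2: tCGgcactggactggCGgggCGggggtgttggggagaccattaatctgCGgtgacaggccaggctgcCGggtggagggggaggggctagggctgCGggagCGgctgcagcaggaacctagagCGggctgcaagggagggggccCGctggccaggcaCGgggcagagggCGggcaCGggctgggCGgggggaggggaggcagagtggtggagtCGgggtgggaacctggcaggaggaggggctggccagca
Kcnk5: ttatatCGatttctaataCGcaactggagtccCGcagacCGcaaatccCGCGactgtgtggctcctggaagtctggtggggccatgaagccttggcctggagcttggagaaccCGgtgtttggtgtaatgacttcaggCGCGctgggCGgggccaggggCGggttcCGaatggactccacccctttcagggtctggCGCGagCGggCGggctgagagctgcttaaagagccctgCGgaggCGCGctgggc
The 6 differ in CpG content. Kcnc1 has 30 CpGs in these 250 bases, Kcnk5 has 19, Kcnh2 has 14, Kcne4 has 7, Kcnj12 has 4 and Kcnk1 has 0. In its 300-base window, which takes in the 50 bases after the start, Kcnk1 has 10 CpGs. A search of both strands of the 300-base windows for the letters CAGATGG, an E-box bound by neural basic helix-loop-helix factors, found it in 4 of the 92 member windows (4.35%), beside 5.3% of all 32851 windows. The letters TTCAGCACC, the left part of the RE1 element, were in 1 (1.09%), that of Kcnh6, beside 0.371% of all, and TGACGTCA, the cyclic AMP response element, was in 0 beside 1.79%. None of these motifs contains another, and a match is only a match of letters.

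The control course was followed step by step, and every stage serves in both of the steps that meet there. Changes are log2 changes of the later over the earlier stage ± SE from edgeR's quasi-likelihood test, in 1 fit of the 12 control libraries (n = 2 per stage), and adjusted p-values are Benjamini-Hochberg values over all 16203 genes tested. Of the 92 members, 84 passed the filter on low counts. All stages share 1 estimate of the spread, so p-values against ES cells also draw on the DMSO pairs, which differed less. The ES cells had no DMSO, so solvent and stage cannot be told apart in comparisons with them.

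At D4, 45 of the 84 tested members had changed from ES cells, 28 higher and 17 lower, which is 53.6% beside 62.3% of all genes, of which 31.9% rose and 30.3% fell. The median change was 0.52 over the members and 0.001 over all genes. The 28 that rose included 8 of 27 tested voltage-gated pore subunits, 5 of 11 two-pore channels and 4 of 14 inward rectifiers. They also included 4 of 8 calcium- or sodium-activated channels and 3 of 4 BK beta subunits. Among the 9 silent subunits tested 1 rose and 4 fell.

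Kcnk1 had 130.0 and 137.0 CPM at D4, against 15.4 and 16.6 CPM in ES cells, a log2 change of 3.06 ± 0.09 (adjusted p = 2.13e-12). Kcng3, a silent subunit that joins Kv2 channels, had 12 and 13.3 CPM at D4, against 0.287 and 0.861 CPM in ES cells (4.43 ± 0.27, adjusted p = 4.1e-09). For both genes, both D4 libraries lay far above both ES libraries.

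Kcnq3, a subunit of the M-type channel that restrains neuronal firing, had 10.3 and 10.4 CPM at D4, against 0.816 and 0.608 CPM in ES cells (3.87 ± 0.20). Kcnip2, a calcium-binding auxiliary subunit of Kv4 channels, had 13.1 and 15.2 CPM at D4, against 2.88 and 4.74 CPM in ES cells (1.89 ± 0.20). The intermediate-conductance calcium-activated channel Kcnn4 and the sodium-activated channel Kcnt1 also rose at D4, by 3.71 ± 0.53 and 3.45 ± 0.47, from low levels. Kcna5, the Kv1.5 subunit of atrial muscle, had 1.39 and 1.33 CPM at D4 and 0 counts in both ES libraries, which makes it at least 7.43-fold higher with 3 counts per library as the floor.

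Among the members that fell at D4, Kcnj12, the strong inward rectifier Kir2.2, had 14.4 and 13.1 CPM at D4, against 35.1 and 27.4 CPM in ES cells (-1.18 ± 0.18, adjusted p = 4.98e-05). Kcnh3, an ether-a-go-go-like voltage-gated channel, had 2.11 and 2.59 CPM at D4, against 11.1 and 12.6 CPM in ES cells (-2.33 ± 0.29). Kcnd3, which carries A-type current as Kv4.3, had 0.0602 and 0.12 CPM at D4, against 1.29 and 1.09 CPM in ES cells (-3.63 ± 0.53). Its auxiliary Kcnip2 was thus at its highest stage level when Kcnd3 was at its lowest.

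**Figure D2:**
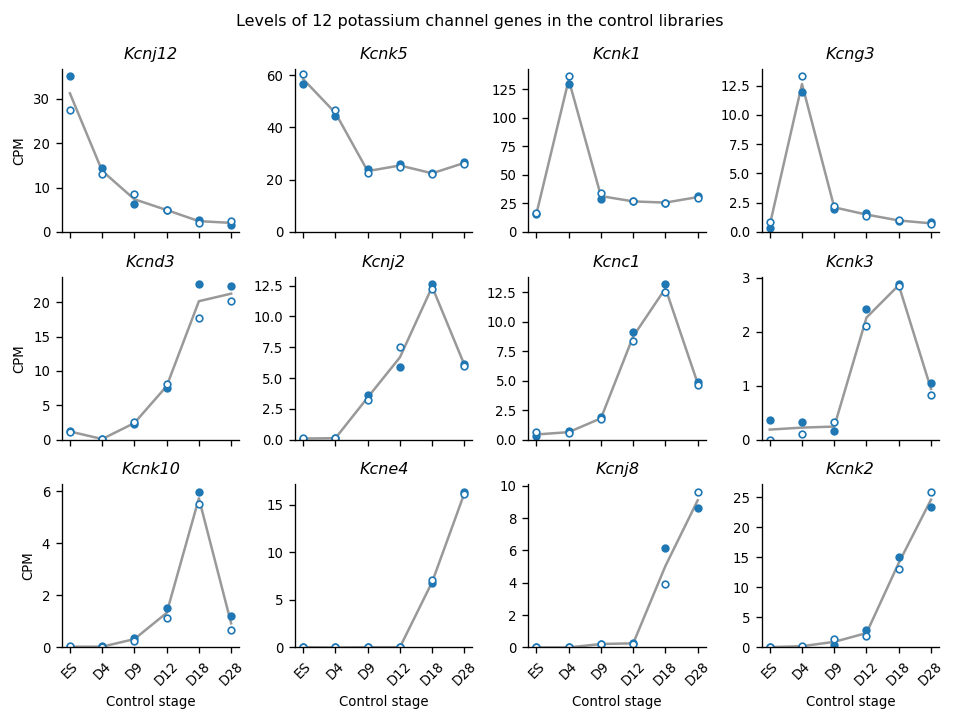
Levels in CPM (y axes, linear from 0, each with its own scale) of 12 potassium channel genes over the 6 control stages (x axes), with filled points for replicate 1, open points for replicate 2 and a line through the mean. Kcnj12 and Kcnk5 are highest in ES cells, Kcnk1 and Kcng3 at D4, Kcnj2, Kcnc1, Kcnk3 and Kcnk10 at D18, and Kcne4, Kcnj8 and Kcnk2 at D28.

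From D4 to D9 several members that had risen at D4 fell, while others rose, among them Kcna5, Kcna6 and Kcnq5, which had risen at D4 too. In GENCODE M21, exons of Gm26673 on the opposite strand cover 39.6% of the exon bases of Kcna6. At D9, 45 of 84 members had changed from D4, 23 higher and 22 lower, which is 53.6% beside 60.8% of all genes, of which 31.9% rose and 28.9% fell. Kcnk1 had 28.6 and 34.1 CPM at D9, against 130.0 and 137.0 CPM at D4 (-2.09 ± 0.08). Kcng3 (-2.59 ± 0.21), Kcnip2 (-2.00 ± 0.20) and Kcnq3 (-1.83 ± 0.16) fell as well. At D9 all of these but Kcnip2 still lay above both ES libraries.

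Among the members that rose at D9, Kcnj2, the classical inward rectifier Kir2.1, had 3.61 and 3.23 CPM at D9, against 0.116 and 0.121 CPM at D4 (4.75 ± 0.36, adjusted p = 5.86e-08). Kcnd3 had 2.21 and 2.63 CPM at D9, against 0.0602 and 0.12 CPM at D4 (4.64 ± 0.44). Kcnn3, the small-conductance calcium-activated channel SK3, had 5.27 and 4.56 CPM at D9, against 0.482 and 0.722 CPM at D4 (3.01 ± 0.23). Kcng1, another silent partner of Kv2, rose by 2.27 ± 0.23 and Kcnq5, an M-type subunit, by 3.23 ± 0.36.

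Between D9 and D12 the changes ran mostly upward. At D12, 29 of 84 members had changed from D9 (34.5%, beside 33.1% of all genes), 25 of them higher and 4 lower, while 17.5% of all genes rose and 15.6% fell. Of the 25, 11 were among the 27 voltage-gated pore subunits tested and 5 among the 11 two-pore channels tested. DESeq2 called 18 members at this step, and removing 1 library left 16 to 20.

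Kcnc1, the Kv3.1 subunit of fast-spiking neurons, had 9.16 and 8.39 CPM at D12, against 1.9 and 1.73 CPM at D9 (2.30 ± 0.19, adjusted p = 1.34e-06). Kcnk3, the acid-sensitive two-pore channel TASK1, had 2.42 and 2.11 CPM at D12, against 0.166 and 0.319 CPM at D9 (3.19 ± 0.52). Kcnd3 rose further, to 7.54 and 8.03 CPM (1.70 ± 0.18). Kcnk10, the mechanosensitive channel TREK2, rose by 2.03 ± 0.45 and Kcns1, a silent subunit, by 2.17 ± 0.45.

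Among the 4 that fell, Kcnj3, a subunit of the G protein-gated inward rectifier of atrium and brain, had 1.02 and 0.818 CPM at D12, against 3.34 and 3.38 CPM at D9 (-1.85 ± 0.28). Exons on the opposite strand (Gm26794) cover 31.1% of the exon bases of Kcnj3 in GENCODE M21, and no source used here states whether counting took strand into account. Exon overlap with another gene, of any size and on either strand, was found for 28 members.

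At D18, 38 of 84 members had changed from D12 (45.2%, beside 37.7% of all genes). Of these, 36 were higher and 2 lower, whereas 20.7% of all genes rose and 17.1% fell. The median change was 0.62 over the members and 0 over all genes. Higher members were found in every class. They were 14 of 27 tested voltage-gated pore subunits, 6 of 14 inward rectifiers, 4 of 9 silent and 4 of 11 auxiliary subunits. The rest were 4 of 8 calcium- or sodium-activated subunits, 3 of 11 two-pore channels and 1 of 4 BK beta subunits.

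Kcnq3 had 7.69 and 7.88 CPM at D18, against 2.38 and 2.11 CPM at D12 (1.80 ± 0.16). Kcnk2, the mechanosensitive channel TREK1, had 15 and 13.1 CPM at D18, against 2.85 and 1.94 CPM at D12 (2.56 ± 0.24). Opposite-strand exons (A430027H14Rik) cover 12.2% of the exon bases of Kcnk2. Kcnma1, the pore of the BK channel, had 6.32 and 5.62 CPM at D18, against 0.764 and 0.682 CPM at D12 (3.06 ± 0.28). Its beta subunit of neurons, Kcnmb4, rose by 0.91 ± 0.18. Opposite-strand exons of Kcnmb4os1 cover 10.7% of the exon bases of Kcnmb4, and those of Kcnmb4os2 cover 20.8%.

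Kcnj8, the Kir6.1 pore of ATP-sensitive channels in vascular muscle and pericytes, had 6.17 and 3.92 CPM at D18, against 0.305 and 0.205 CPM at D12 (4.28 ± 0.36). The smooth muscle marker sum (Acta2, Myh11, Cnn1 and Tagln) went the other way, with 1280 to 1290 CPM at D12 and 640 to 658 CPM at D18. Its relation to Kcnj8 was not tested. Kcne4, a single-span subunit that inhibits some voltage-gated channels, had 6.72 and 7.04 CPM at D18, and 0.0509 and 0 CPM at D12 (adjusted p = 3.42e-08). It was close to absent at every earlier stage, with at most 0.0613 CPM in a control library. The 2 members that fell were Kcnj12 (-1.03 ± 0.25, adjusted p = 0.00511, 0.0629 without D18 DMSO replicate 2) and Kcnh2 (-0.36 ± 0.11, adjusted p = 0.0152, 0.0639 to 0.0933 without any 1 of the 4 libraries compared).

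From D18 to D28 the members split. At D28, 45 of 84 had changed from D18 (53.6%, beside 53% of all genes), 22 higher and 23 lower, while 24.9% of all genes rose and 28.1% fell. DESeq2 called 23, 8 higher and 15 lower, and removing 1 library left 27 to 32. The shares of all genes under these alternative fits are not given here. In the main fit, 6 of 27 tested voltage-gated pore subunits rose and 9 fell, and of 11 tested two-pore channels 5 rose and 3 fell.

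Kcnk10 had 1.2 and 0.657 CPM at D28, against 5.97 and 5.5 CPM at D18 (-2.62 ± 0.29). Kcnc1 had 4.9 and 4.65 CPM at D28, against 13.2 and 12.5 CPM at D18 (-1.43 ± 0.16). The ether-a-go-go-like channel Kcnh4 (-1.70 ± 0.30), Kcnk3 (-1.62 ± 0.38) and Kcnj2 (-1.04 ± 0.15) fell too.

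Markers of neurons moved over the same steps. The summed level of 8 neuron markers (Tubb3, Map2, Dcx, Rbfox3, Snap25, Elavl3, Stmn2 and Syt1) was 121 to 122 CPM at D9, 330 to 350 at D12, 777 to 801 at D18 and 140 to 149 at D28. Before these steps it was 171 to 223 CPM in ES cells, above the D28 level for these genes, and 44 to 48.8 CPM at D4. All 8 rose at D12, all 8 rose at D18 and all 8 fell at D28, and none was at 0. Their part in the channel changes was not tested.

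The members that rose at D28 were others. Kcne4 had 16.3 and 16.1 CPM at D28, against 6.72 and 7.04 CPM at D18 (1.23 ± 0.17). Kcne3, an auxiliary subunit that keeps the epithelial Kcnq1 channel open, had 5.75 and 6.32 CPM at D28, against 1.6 and 1.54 CPM at D18 (1.93 ± 0.23). Kcnq1 itself had 1.6 and 2.22 CPM at D28, against 0.602 and 0.347 CPM at D18 (1.99 ± 0.40). Kcnk2 (0.80 ± 0.19) and the SK2 channel Kcnn2 (0.92 ± 0.16) also rose and held their calls without each library.

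Inward rectifiers of glia and epithelia were among those that rose. Kcnj10, the Kir4.1 channel of astrocytes, had 5.81 and 7.71 CPM at D28, against 4.51 and 3.44 CPM at D18 (0.77 ± 0.23), with an adjusted p of 0.0126, and of 0.136 and 0.16 without D18 DMSO replicate 2 and without D28 DMSO replicate 2. Kcnj13, the Kir7.1 channel of pigment epithelium, rose by 1.84 ± 0.50 (adjusted p = 0.00689, 0.0914 without D18 DMSO replicate 2 and 0.0519 without D28 DMSO replicate 1), but 49.1% of its exon bases overlap exons of Gigyf2 on the opposite strand. Summed astrocyte markers (Gfap, Aqp4, Slc1a2, Slc1a3 and Fabp7) were 226 to 236 CPM at D18 and 985 to 996 CPM at D28, with 3 of 5 higher and 1 lower. Their part in these changes was not tested.

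**Figure D3:**
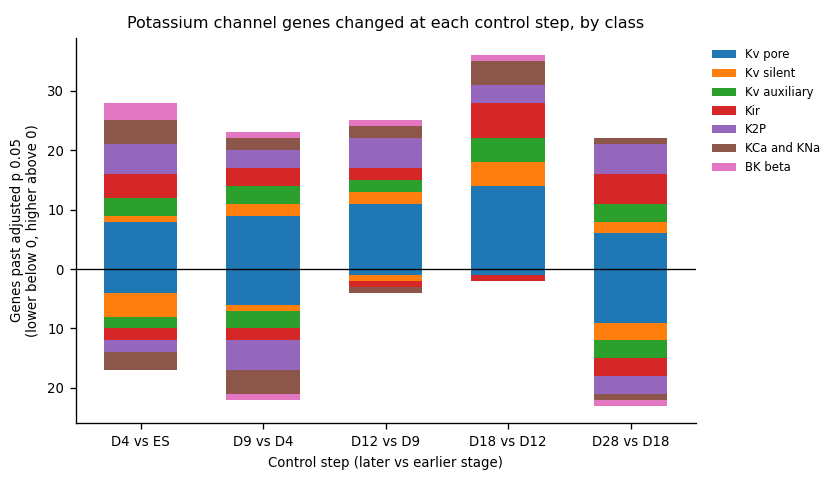
Number of potassium channel genes (y axis) past an adjusted p of 0.05 at each control step (x axis), higher above 0 and lower below 0, stacked by class (Kv, voltage-gated; Kir, inward rectifier; K2P, two-pore domain; KCa and KNa, calcium- and sodium-activated; BK beta, beta subunits of the BK channel). The steps to D12 and D18 have 25 and 36 higher genes against 4 and 2 lower ones, while the other steps are closer to even.

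Over the whole course, 69 of 84 members differed between D28 and ES cells (82.1%, beside 83.1% of all genes), 54 higher and 15 lower, while 45% of all genes rose and 38.2% fell. The median change was 2.43 over the members and 0.133 over all genes. Kcnd3 had 22.3 and 20.2 CPM at D28, against 1.29 and 1.09 CPM in ES cells (4.16 ± 0.19). Kcnj12 had 1.5 and 2.54 CPM at D28, against 35.1 and 27.4 CPM in ES cells (-3.94 ± 0.22). Kcna5, Kcnj8, Kcnq5 and Kcne3 had 0 counts in both ES libraries and reached 5.75 to 13.3 CPM in the D28 libraries.

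The direction for Kcnh2 between these end points depended on the measure. In counts it was lower, with 9.95 and 9.65 CPM at D28, against 12.3 and 12.9 CPM in ES cells (-0.35 ± 0.12, adjusted p = 0.0122), and the adjusted p was 0.0679 without D28 DMSO replicate 2. Scaling by library size alone gave -0.05 and moved the median of all genes at this comparison to 0.431, against 0.133 with the main scaling. On log2(FPKM + 1) the change was 0.02 (adjusted p = 0.777), and the deposited values were 2.85 and 2.83 FPKM at D28, against 2.73 and 2.82 FPKM in ES cells.

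Several members with well-known roles were not present, by the rule above, at any control stage. Kcne1, the cardiac partner of Kcnq1, did not pass the filter and had at most 0.198 CPM in a control library. Kcna3, the Kv1.3 channel of lymphocytes, had 0 to 0.7 CPM over the control libraries and was not tested at the control steps. Kcnmb1, the BK beta subunit of smooth muscle, was at 0.307 to 1.51 CPM from D4 on. Kcnj11, the Kir6.2 pore, went from 0 and 0.04 FPKM in ES cells to 1.09 and 0.74 FPKM at D28, where it had 2.9 and 2.07 CPM.

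Other channel genes, from lists chosen beside the members, are given as counts. At D18 against D12, 14 of 17 tested calcium channel genes rose and none fell, 5 of 12 sodium channel genes rose and none fell, and 1 of 4 HCN genes rose. Of 8 tested partners of potassium channels (such as Dpp6 and the sulfonylurea receptors Abcc8 and Abcc9) 2 rose, and of 7 sodium pump subunits 4 rose, with none lower in either. At D28 against D18, 3 calcium channel genes rose and 6 fell, and 2 sodium channel genes rose and 5 fell. Of the sodium pump subunits 5 rose and 1 fell.

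For the test of TBBPA at each day, the low-dose and high-dose library together formed the treated group (n = 2) and were set against DMSO (n = 2), with every library in a single model that tested 86 members and 16383 genes. Within a day the doses share the DMSO libraries. At D4, 0 of 86 members passed in edgeR and 0 in DESeq2, with 2 at an unadjusted p under 0.05, beside 0.458% of all genes called, 0.0855% higher and 0.372% lower. At D9, 4 passed (4.65%, beside 2.34% of all genes), 3 higher and 1 lower, with 1.37% and 0.964% of all genes higher and lower. At D12, 12 passed (14%, beside 21.1%), 9 higher and 3 lower, with 11.9% and 9.19% of all genes higher and lower. At D18, 7 passed (8.14%, beside 10.5%), 5 higher and 2 lower (2 and 2 when scaled by library size alone), with 5.96% and 4.56% of all genes higher and lower. At D28, 3 passed (3.49%, beside 7.09%), 2 higher and 1 lower, with 3.65% and 3.44% of all genes higher and lower. Except at D9, the shares were thus at or under that of all genes.

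These day calls rest on few libraries. Of the 26, 24 were lost when some single library of that day was left out, with adjusted p-values of 0.05 to 0.386, and 3 remained when the DMSO pair was summed into 1 sample. Kcnh2 at D12 and Kcne4 at D18 held without each library in turn.

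At D9 the members that rose were Kv1 subunits. Kcna1, the Kv1.1 subunit of axons, had 1.18 and 1.75 CPM with 10 nM and 100 nM TBBPA, against 0.108 and 0.322 CPM with DMSO (2.73 ± 0.48, adjusted p = 0.00282). In counts these are 22 and 32 with TBBPA, against 2 and 6 with DMSO, and the adjusted p was 0.103 without D9 DMSO replicate 1. Kcna5 had 4.74 and 7.24 CPM with TBBPA, against 2.62 and 2.69 CPM with DMSO (1.17 ± 0.25, adjusted p = 0.0144, 0.145 to 0.23 without either DMSO library or the 100 nM library). Kcna2, another axonal Kv1 subunit, had 2.12 and 2.18 CPM with TBBPA, against 0.757 and 1.11 CPM with DMSO (1.18 ± 0.30, adjusted p = 0.0363, 0.103 to 0.386 without any 1 of the 4 libraries). Kcnk5 was the member that fell, with 18 and 19.0 CPM with TBBPA, against 24.1 and 22.4 CPM with DMSO (-0.33 ± 0.09, adjusted p = 0.0413, 0.116 to 0.376 without any 1 of the 4).

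At D12 the 9 members that rose were 5 of 29 tested voltage-gated pore subunits, 3 of 11 auxiliary subunits and 1 of 11 two-pore channels. Kcnh2, the Erg1 channel of cardiac repolarization and of some neurons, had 28.3 and 29.5 CPM with TBBPA, against 19.8 and 19.3 CPM with DMSO (0.57 ± 0.10, adjusted p = 0.000328). Kcnk10 had 2.18 and 3.49 CPM with TBBPA, against 1.53 and 1.13 CPM with DMSO (1.09 ± 0.30, adjusted p = 0.0123). In both of them both TBBPA libraries lay above both DMSO libraries.

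Kcnc1 had 12.7 and 15.8 CPM with TBBPA at D12, against 9.16 and 8.39 CPM with DMSO (0.70 ± 0.17, adjusted p = 0.00439). Kcnh4 (1.04 ± 0.31), Kcnab3 (0.76 ± 0.21), Kcnd3 (0.55 ± 0.17), Kcnip3 (0.49 ± 0.15) and Kcnab2 (0.45 ± 0.14) rose as well. Kcnab2 and Kcnab3 encode beta subunits of Kv1 channels, and Kcnip3 a calcium-binding subunit of Kv4 channels. Leaving out 1 library gave adjusted p-values of 0.141 to 0.222 for Kcnk10 (DMSO replicate 2 or the 100 nM library). It gave 0.0622 to 0.0957 for Kcnc1, for the same choice of libraries as Kcnk10. Kcnh4, Kcnab3, Kcnd3, Kcnip3 and Kcnab2 were each lost without at least 2 of the 4 libraries, with values of 0.0525 to 0.202.

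The 3 that fell at D12 were all among the 11 two-pore channels tested. Kcnk6, the TWIK2 channel, had 3.62 and 2.75 CPM with TBBPA, against 6.22 and 6.47 CPM with DMSO (-0.99 ± 0.22, adjusted p = 0.00218, 0.0545 without the 100 nM library). Kcnk1 had 21.9 and 19.3 CPM with TBBPA, against 26.7 and 26.7 CPM with DMSO (-0.38 ± 0.11, adjusted p = 0.0137, 0.0705 to 0.169 without either DMSO library or the 100 nM library). Kcnk5 had 19.8 and 20.4 CPM with TBBPA, against 26.1 and 24.7 CPM with DMSO (-0.34 ± 0.08, adjusted p = 0.00608, 0.05 to 0.0702 without the 10 nM library or DMSO replicate 1).

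At D18, Kcnk10 and Kcnc1 were among the 5 members that rose. Kcnk10 had 9.67 and 9.11 CPM with TBBPA, against 5.97 and 5.5 CPM with DMSO (0.71 ± 0.22, adjusted p = 0.0461), and Kcnc1 had 18.2 and 21 CPM, against 13.2 and 12.5 CPM (0.61 ± 0.16, adjusted p = 0.0142, 0.0855 to 0.142 without either DMSO library or the 100 nM library). Although the groups did not overlap, Kcnk10 missed the threshold in DESeq2 and without any 1 of the 4 libraries (adjusted p = 0.127 to 0.268). Kcnip3 (0.53 ± 0.14) and Kcnab2 (0.43 ± 0.13) also rose, and they were lost without at least 3 of the 4 (0.0611 to 0.204).

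Kcne4 at D18 was lower, with 2.85 and 2.01 CPM with TBBPA, against 6.72 and 7.04 CPM with DMSO (-1.50 ± 0.24, adjusted p = 0.000361). At D28 it had 10.3 and 13.4 CPM with TBBPA, against 16.3 and 16.1 CPM with DMSO, which did not pass. Kcnj2 had 8.43 and 6.33 CPM with TBBPA at D18, against 12.6 and 12.2 CPM with DMSO (-0.75 ± 0.19, adjusted p = 0.0142, 0.0779 to 0.187 without either DMSO library or the 100 nM library).

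Cell type markers moved on the same days. The neuron marker sum was 648 to 688 CPM with TBBPA at D12, against 330 to 350 CPM with DMSO, and 1190 to 1280 CPM at D18, against 777 to 801 CPM. Of the 8 neuron markers 7 rose at D12 and all 8 at D18. The astrocyte marker sum was 165 to 174 CPM with TBBPA at D12, against 92.9 to 96.7 CPM with DMSO, with 2 of 5 higher. It was 324 to 337 CPM with TBBPA at D18, against 226 to 236 CPM with DMSO, with 2 of 5 higher. At D28, 1 of 5 was higher, and both TBBPA libraries, at up to 1340 CPM, had sums above the 985 to 996 CPM with DMSO. The skeletal muscle marker sum (Myog, Myh3, Myh8, Myl1 and Ckm) was 7.37 to 11 CPM with TBBPA at D18, against 46.2 to 51.5 CPM with DMSO, with 4 of 5 lower. The cardiac marker sum was 81.1 to 98.8 CPM with TBBPA at D18, against 151 to 158 CPM with DMSO, with 4 of 6 lower. At D9, where Kcna5 rose, the cardiac marker sum was 41.3 to 63.4 CPM with TBBPA, against 75.4 to 76.5 CPM with DMSO. The epithelial marker sum at D12 was 806 to 916 CPM with TBBPA, against 1300 to 1330 CPM with DMSO, with 3 of 5 lower. Kcnk1, Kcnk5 and Kcnk6 fell on that day, and all 5 ES markers fell, to 384 to 392 CPM against 616 CPM. None of these markers was at 0 throughout a group on the days given, and their part in the channel results was not tested.

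At D28 the picture differed. Kcnk5 had 33.8 and 35.5 CPM with TBBPA, against 26.8 and 26.0 CPM with DMSO (0.39 ± 0.08, adjusted p = 0.00401, 0.0588 to 0.0708 without DMSO replicate 2 or the 100 nM library). Kcng1 had 34.3 and 34.1 CPM with TBBPA, against 21.9 and 24.8 CPM with DMSO (0.55 ± 0.13, adjusted p = 0.0139, 0.0708 to 0.19 without either DMSO library or the 100 nM library). Kcnh2 had 7.03 and 7.76 CPM with TBBPA, against 9.95 and 9.65 CPM with DMSO (-0.41 ± 0.12, adjusted p = 0.041, 0.109 to 0.214 without any 1 of the 4 libraries).

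Whether the TBBPA effect differed between the days was tested directly, and 6 of 86 members passed (6.98%, beside 10.4% of all genes), namely Kcnk5, Kcnh2, Kcnc1, Kcnk6, Kcnk1 and Kcna5. Kcnk5 (adjusted p = 0.000837) was lower with TBBPA at D9 and D12 and higher at D28. Kcnh2 (adjusted p = 0.00212) was higher at D12 and lower at D28. Both held without each library in turn, whereas the other 4 were lost without at least 3 single libraries.

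**Figure D4:**
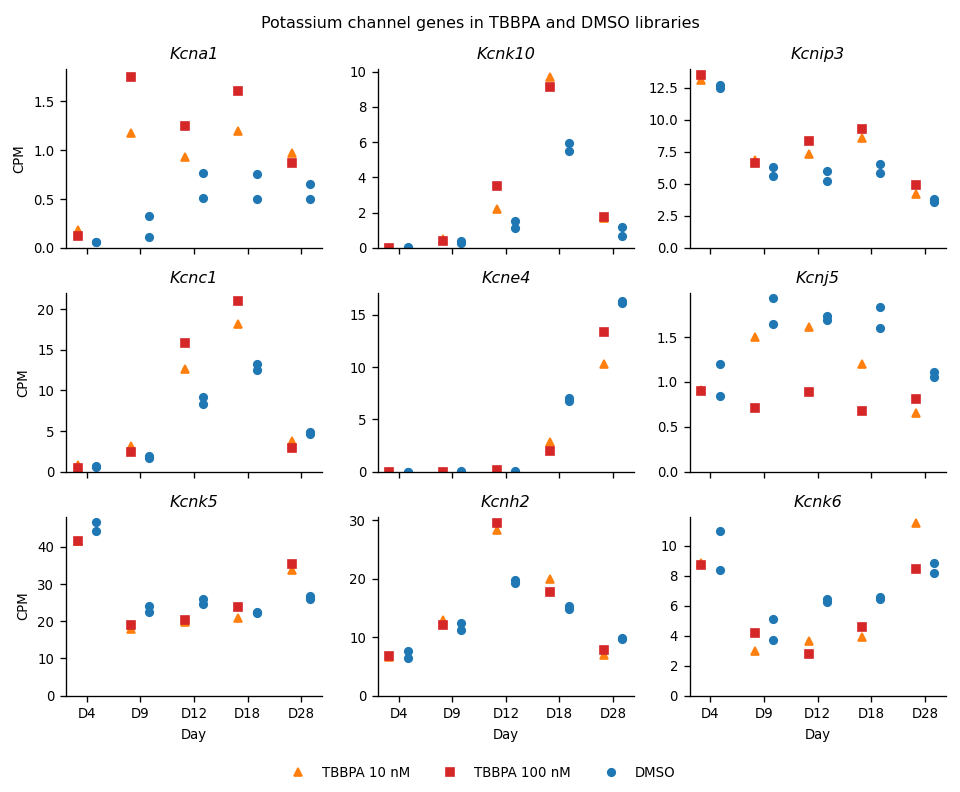
Levels in CPM (y axes, linear from 0, each with its own scale) of 9 potassium channel genes at the 5 days (x axes), with TBBPA libraries on the left of each day (triangle 10 nM, square 100 nM) and the 2 DMSO libraries on the right (circles). TBBPA points lie above DMSO for Kcna1 and Kcnip3 at all 5 days and below it for Kcne4 at D18 and D28. The Kcna1 points at D4 stand for about 3 counts or fewer. For Kcnk5 and Kcnh2 the order at D12 is the opposite of that at D28.

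The doses were also compared over the 5 days, with the day as a factor. With 10 nM TBBPA, 12 of 74 tested members differed from DMSO (16.2%, beside 14% of all genes), 10 higher and 2 lower, while 7.58% of all genes rose and 6.44% fell. With 100 nM, 8 of 73 differed (11%, beside 15.6%), 7 higher and 1 lower, while 7.71% of all genes rose and 7.9% fell. With both doses together, 16 of 76 differed (21.1%, beside 22.9%), 13 higher and 3 lower (12.1% and 10.8% of all genes), of which 9 held without each library. Of the 16, 10 were voltage-gated pore subunits, 9 of them higher, and this class made up 27 of the 76 tested members. Without each library in turn, 2 of the 12 calls with 10 nM and 3 of the 8 with 100 nM held, and the counts ran from 3 to 17 and from 4 to 13. Both dose comparisons use the same 10 DMSO libraries.

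Kcna1 had the largest mean rise, 1.07 ± 0.26 with 10 nM (adjusted p = 0.012) and 1.38 ± 0.29 with 100 nM (adjusted p = 0.00497). At D4, D9, D12, D18 and D28 it had 0.18, 1.18, 0.935, 1.2 and 0.967 CPM with 10 nM, and 0.121, 1.75, 1.25, 1.61 and 0.868 CPM with 100 nM. The DMSO libraries had 0.0602 and 0.0602 CPM at D4, 0.108 and 0.322 at D9, 0.764 and 0.512 at D12, 0.752 and 0.496 at D18, and 0.5 and 0.657 at D28. At D4 no library had more than about 3 counts of Kcna1, so the order there rests on few counts. With that limit, both doses exceeded both DMSO libraries at 5 of 5 days, at levels that are low throughout.

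The same held for 1 other member, Kcnip3, so 2 of 92 members did so, beside 0.598% of all listed genes. At 4 or 5 days both doses were above both DMSO libraries for 6 members (Kcna1, Kcna4, Kcng1, Kcnh4, Kcnip3 and Kcnk10), beside 5.27% of all genes, and below them for 1, Kcnj5, beside 4.75%. Kcnip3 rose by 0.31 ± 0.07 with both doses (adjusted p = 0.00419), Kcng1 by 0.29 ± 0.07 and Kcnk10 by 0.81 ± 0.15 (adjusted p = 0.00078).

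In the fit of both doses together, Kcna4 (0.92 ± 0.31) and Kcnd2 (0.70 ± 0.23), both A-type channel subunits, rose from low levels. Neither call held without each library (adjusted p = 0.0509 to 0.167 and 0.0585 to 0.161). By dose, Kcna4 passed with 100 nM (1.18 ± 0.37, adjusted p = 0.0413) and not with 10 nM (0.66 ± 0.35, adjusted p = 0.217). Kcnd2 did not pass the filter in the 100 nM fit. A smaller rise in the fit of both doses together, that of Kcnd3 (0.34 ± 0.10), held without each library.

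Of the 3 that fell, Kcne4 changed by -0.85 ± 0.20 (adjusted p = 0.00725) and Kcnc4, the Kv3.4 subunit, by -0.36 ± 0.13 (adjusted p = 0.0444, 0.0521 to 0.0926 without single libraries). Kcne4 had at most 0.06 FPKM in any DMSO or TBBPA library at D4, D9 and D12. Its mean change thus rests on D18 and on D28, where it did not pass alone. Kcnj5, the partner of Kcnj3 in the atrial G protein-gated channel, changed by -0.60 ± 0.14 (adjusted p = 0.00572). It had 0.904, 0.71, 0.885, 0.674 and 0.815 CPM with 100 nM over the days, 0.908, 1.5, 1.61, 1.2 and 0.659 CPM with 10 nM, and 0.841 to 1.93 CPM with DMSO. Its change was -0.87 ± 0.19 with 100 nM and did not pass with 10 nM, but the doses themselves were not told apart for it (100 nM over 10 nM, -0.54 ± 0.22, adjusted p = 0.738).

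No member differed between 100 nM and 10 nM over the days in edgeR (0 of 76, beside 0% of all genes) or in DESeq2 (0), and 6 did at an unadjusted p under 0.05. The 5 with the smallest p were Kcnj10 (-0.47 ± 0.18), Kcnj5, Kcnt2 (0.38 ± 0.16), Kcnc4 (0.41 ± 0.18) and Kcnj2 (-0.39 ± 0.18). A difference that misses the threshold does not show that the doses act alike.

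**Figure D5:**
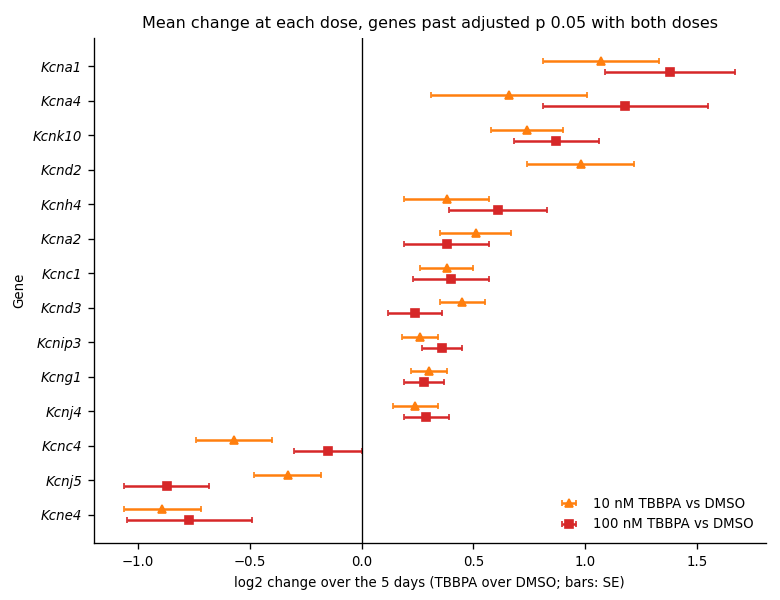
Mean log2 change over the 5 days (x axis, TBBPA over DMSO, bars SE) of 14 of the 16 potassium channel genes past an adjusted p of 0.05 with both doses together (y axis), shown for 10 nM (triangles) and 100 nM (squares). Of these, 11 lie right of 0 and 3 left of it at each dose fitted, and Kcnd2 has no 100 nM point because it was not tested there.

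Other channel genes under TBBPA are given by counts. At D12, 7 of 17 calcium channel genes and 4 of 12 sodium channel genes rose and none fell, and 2 of 9 potassium channel partners and 1 of 4 HCN genes rose. At D18, 5 calcium channel genes rose and 2 fell, 2 sodium channel genes and 2 HCN genes rose, and at D28, 4 calcium channel genes fell and none rose. Of the 7 sodium pump subunits 1 rose and 2 fell at D12, 1 rose at D18 and 2 rose at D28.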

How the data were processed

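RNA from 22 libraries was analysed from gene tables of expected counts and FPKM values that the authors deposited, per the file headers. Per the submitters' processing notes the tools included HISAT and Bowtie2 and the build was GRCm38.p5, with versions not given in the sources used here, and whether counting used strand is not given either. The deposited expected counts were made whole by rounding, and CPM is the count scaled to the library size as adjusted by edgeR's trimmed mean of M-values.

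Tests used edgeR 4.0.16 (quasi-likelihood, robust, R 4.3.3) after its filter on low counts (minimum count 10, minimum total 15), with Benjamini-Hochberg adjustment over all genes tested and a threshold of 0.05. The SE is the log2 change divided by the root of F. Residual degrees of freedom were 6 in the control fit, 11 in the fit by day, 9 for 1 dose over days and 13 for both. Alternatives were DESeq2 1.42.0, other scalings, no filter, limma 3.58.1 on log2(FPKM + 1) and log2(FPKM + 0.1) of the deposited FPKM values, and each library left out. Member counts under these alternatives are given without the matching share of all genes. The fits were tested on simulated data.

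Members and gene lists were chosen with earlier results of these data known. Named are the 3 highest members of each class, the largest changes that passed at each comparison, and members of known roles. The printed promoters, the motifs and the genes plotted by stage and day were chosen after values were seen. No pairing of the samples by replicate number was visible, and the main tests used none. Some members enter the counts but are not reported by name here.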

Additional observations from a re-analysis of the deposited data

Results flagged for a closer look

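For 6 potassium channel genes the effect of TBBPA (both doses against DMSO) differed between days by a direct test over D4, D9, D12, D18 and D28. Kcnk5 (adjusted p = 0.000837) changed by -0.13, -0.33, -0.34, 0.00 and 0.39 on the log2 scale over these days. Kcnh2 (adjusted p = 0.00212) changed by -0.07, 0.07, 0.57, 0.32 and -0.41. Kcnc1 (adjusted p = 0.019) changed by 0.00, 0.63, 0.70, 0.61 and -0.50. Kcnk6 (adjusted p = 0.0393) changed by -0.14, -0.30, -0.99, -0.61 and 0.23. Kcnk1 (adjusted p = 0.0441) changed by 0.11, -0.28, -0.38, -0.18 and 0.11, and Kcna5 (adjusted p = 0.0459) by 0.15, 1.17, 0.48, -0.08 and -0.14.

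Kcnk5 and Kcnh2 passed without each library in turn. The call was lost without 3 single libraries for Kcnc1 (adjusted p = 0.0687 to 0.116), 11 for Kcnk6 (0.0506 to 0.142), 15 for Kcnk1 (0.052 to 0.123) and 16 for Kcna5 (0.0504 to 0.191).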

How the results depend on the processing

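Counts below are potassium channel genes past the threshold, without the share of all genes under the same setting. The steps are in the order D4, D9, D12, D18 and D28 against the stage before, then D28 against ES cells. On log2(FPKM + 1) limma called 23, 27, 18 and 24 at the first 4 steps and 35 at D28 against ES, and on log2(FPKM + 0.1) it called 25, 19, 23, 27 and 34 at D4, D12, D18, D28 and D28 against ES, out of 41 to 42 tested members. DESeq2 called 18 at D12 and 23 at D28. Leaving out 1 library gave 41 to 46, 37 to 40, 16 to 20, 32 to 33, 27 to 32 and 65 to 70. Kcnh2 at D28 against ES reversed with limma, to 0.02 and 0.03, and the cause was not tested. With the replicate block the counts were 45, 46, 27, 38, 45 and 69, and 2 of 271 calls were lost, those of Kcnn2 and Kcnt2 at D12. Correlations of same-numbered deviations were -0.036 to 0.057, so no pairing by number was visible, but such values cannot exclude one. No paired analysis was possible because each TBBPA dose has 1 library a day.

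With TBBPA, DESeq2 called 1 at D9, 4 at D18 and 7 with 10 nM. Limma (pseudocounts 1 and 0.1) called 2 and 1 at D9, 6 and 1 at D28, 10 and 3 for the difference between days, 2 and 1 with 10 nM, 2 and 2 with 100 nM and 5 and 5 with both doses, and 2 at D18 with 0.1. Library size alone gave 4 at D18. Fitting only the libraries compared gave 2 at D9 and 19 at D12. Summing each DMSO pair gave 0, 2, 1 and 0 at D9, D12, D18 and D28. Leaving out 1 library gave 0 to 0 at D4, 0 to 3 at D9, 4 to 8 at D12, 1 to 4 at D18, 0 to 3 at D28, 2 to 7 for the difference between days, 3 to 17 with 10 nM, 4 to 13 with 100 nM, 10 to 16 with both and 0 to 0 between the doses. With 1 library per dose and day, a lone sample is assumed to vary like the others.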
